A study of Homo sapiens with 4 samples.

Results

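The genes described here carry glucose into the cell and break it down to lactate. They are SLC2A1, HK1, HK2, PFKP, PFKFB3, ALDOA, PGK1, ENO1, LDHA and LDHB, 10 of the 23004 gene names in the deposited files, chosen by name. RNA was sequenced from BEAS-2B cells, a line from human bronchial epithelium immortalized with viral genes, which is 1 line and not normal airway tissue. In 2 libraries the cells had been exposed to 100 µM formaldehyde for 48 h, and 2 libraries came from cells without it. The treatment label gives the dose and time and the series title the compound, a small aldehyde that crosslinks protein and DNA. The labels do not say whether replicates were separate cultures, so the p-values here reflect how far these particular libraries differ, and that spread may be technical.

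Glycolysis turns 1 glucose into pyruvate with a net gain of ATP, and lactate dehydrogenase then reduces pyruvate to lactate so that the pathway can go on without oxygen. Entry is set by the transporter, by hexokinase and by phosphofructokinase, while the enzymes of the lower pathway are abundant housekeeping proteins. Many of the genes are known targets of hypoxia-inducible factor (HIF), which binds a short element with a core such as ACGTG. Growing or transformed epithelial cells often express the genes highly.

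None of the 10 genes passed the test for a difference between formaldehyde and untreated cells. HK2, the inducible hexokinase, stood furthest from equality at 18.2 ± 1.43 FPKM with formaldehyde and 11.9 ± 0.279 FPKM untreated (mean ± SD, n = 2 each), 1.54 times as high in ratio of means. PFKFB3 was the only other gene in which both formaldehyde libraries lay above both untreated ones, and 16.2% of all genes tested were apart in that direction, so 2 of 10 is near the background. The other 8 genes had overlapping groups, so their group differences were within the range of the libraries. Levels are in FPKM, the authors' deposited unit of fragments per kilobase and per mapped depth, added up here over all transcripts of a gene.

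Promoters of 3 of the genes are shown because their upstream sequence bears on the HIF background. HK2 and PFKFB3 are the genes whose groups did not overlap, and LDHA, whose groups did, is set beside them with the window that holds the most copies of the core. Each is the 250 bases before a transcript start in RefSeq (GRCh38.p14), 5′ to 3′, with every ACGTG on either strand in capitals, so that CACGT is the core read on the other strand. A CACGTG, the E-box, holds the core once on each strand and counts as 2 matches.
HK2, upstream start, chr2:74833877-74834126, plus strand: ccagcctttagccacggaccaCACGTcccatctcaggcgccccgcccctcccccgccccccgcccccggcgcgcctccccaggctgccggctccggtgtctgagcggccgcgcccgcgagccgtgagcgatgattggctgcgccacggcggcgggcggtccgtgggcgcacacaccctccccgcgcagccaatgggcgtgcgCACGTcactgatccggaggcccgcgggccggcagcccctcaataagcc
HK2, downstream start, chr2:74834920-74835169, plus strand: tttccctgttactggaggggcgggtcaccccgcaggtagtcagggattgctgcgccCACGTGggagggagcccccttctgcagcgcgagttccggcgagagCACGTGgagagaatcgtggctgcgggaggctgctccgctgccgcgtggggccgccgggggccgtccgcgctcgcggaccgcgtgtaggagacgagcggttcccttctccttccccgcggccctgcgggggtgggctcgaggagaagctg
PFKFB3, upstream start, chr10:6144671-6144920, plus strand: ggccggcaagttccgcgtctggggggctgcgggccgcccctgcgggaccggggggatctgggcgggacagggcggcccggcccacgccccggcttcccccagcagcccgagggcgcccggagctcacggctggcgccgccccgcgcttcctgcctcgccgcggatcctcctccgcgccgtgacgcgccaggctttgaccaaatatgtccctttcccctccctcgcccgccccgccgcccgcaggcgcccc
PFKFB3, downstream start, chr10:6202682-6202931, plus strand: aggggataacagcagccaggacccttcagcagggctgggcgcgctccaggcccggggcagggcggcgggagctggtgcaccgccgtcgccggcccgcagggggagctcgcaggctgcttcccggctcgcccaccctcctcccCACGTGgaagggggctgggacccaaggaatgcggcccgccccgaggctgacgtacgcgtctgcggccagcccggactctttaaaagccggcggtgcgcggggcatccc
LDHA, upstream start, chr11:18394313-18394562, plus strand: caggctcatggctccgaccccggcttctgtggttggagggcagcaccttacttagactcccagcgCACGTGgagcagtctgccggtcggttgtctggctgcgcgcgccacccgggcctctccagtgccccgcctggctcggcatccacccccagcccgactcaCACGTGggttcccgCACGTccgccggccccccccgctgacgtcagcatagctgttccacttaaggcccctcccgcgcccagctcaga
The HK2 windows held 2 and 4 matches, the upstream PFKFB3 window 0, the downstream one 2, and the LDHA window shown 5, while the other LDHA window held 0. Of the 24 windows that RefSeq lists for the 10 genes, 9 (37.5%) held at least 1 match, against 18.5% of all 35116 windows. A CACGTG stood in 4 of the 24 (16.7%), against 6.34% of all windows. By gene, 6 of 10 had the core in at least 1 window, namely HK2, PFKP, PFKFB3, ALDOA, PGK1 and LDHA. A share by gene over all genes was not computed. Genes with several windows had more places for a match, so this count cannot be set against the share of windows. SLC2A1, HK1, ENO1 and LDHB had no ACGTG in these windows. Only ACGTG was searched for, so other forms of the HIF element were not counted in any window. A match is a description of letters and not a bound site, and the windows were not matched to the hg19 transcripts of the files.

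The libraries held about 14220000 and 22190000 mapped fragments with formaldehyde and 16790000 and 26420000 untreated, as estimated from the deposited intervals. At that depth the leading transcript of each of the 10 genes carried a deposited interval of 1.03% to 10.7% of its value on either side. Such an interval covers error within a library and not the spread between replicates. In the LDHA estimate of untreated replicate 2 the deposited lower bound was 0, and that interval was left out. Of 8 epithelial markers, KRT7, KRT8 and KRT18 were abundant, while KRT5 was listed at 0 in every library and KRT19 and CDH1 did not reach 1 FPKM. The epithelial markers summed to 1353 and 1198 FPKM with formaldehyde against 749 and 722 FPKM untreated. Fibroblast markers, nearly all of them COL1A1, summed to 145 and 277 against 301 and 600 FPKM, with COL3A1 and DCN at or near 0. Both sums separate the groups as HK2 does, and their part in the HK2 result was not tested. The 7 leukocyte markers summed to 8.93 and 10.6 against 5.61 and 14.9 FPKM with PTPRC and CD3E at or near 0, and the 4 endothelial and 4 erythroid markers stayed under 1 FPKM in every library. In bulk RNA, fewer cells of a type and less RNA per cell cannot be told apart.

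**Figure D1:**
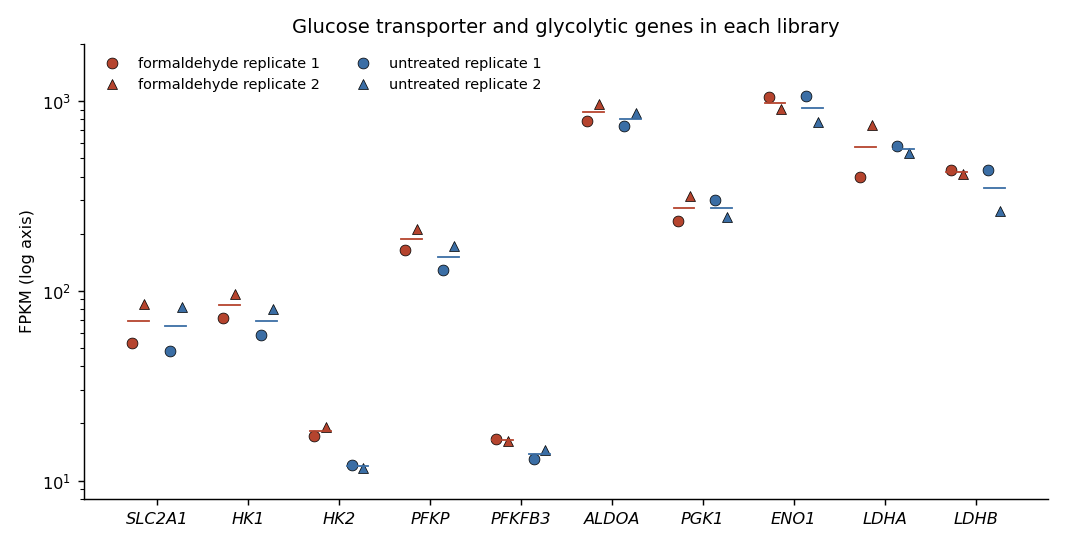
FPKM (log axis) of the 10 genes in each library, formaldehyde in red on the left and untreated in blue on the right, with circles for replicate 1, triangles for replicate 2 and lines for the group means. HK2 at 17.2 and 19.3 against 12.1 and 11.7 FPKM and PFKFB3 at 16.6 and 16.2 against 13.0 and 14.5 FPKM are the genes whose groups do not overlap.

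Levels spanned a wide range, and since FPKM is per length they can be compared between genes. ENO1 led with a mean of 948 FPKM over the 4 libraries, followed by ALDOA at 838, LDHA at 564, LDHB at 387 and PGK1 at 273 FPKM. The ranges of neighbours over the libraries overlapped from ENO1 down to PGK1. Within each library, though, ALDOA was above LDHA and LDHB above PGK1 in 4 of 4, whereas the order of ENO1 and ALDOA and that of LDHA and LDHB changed between libraries. PFKP at 169 FPKM lay apart from PGK1 above it and from HK1 below it. HK1 at 76.8 and SLC2A1 at 67.2 FPKM overlapped, and PFKFB3 and HK2, both at 15.1 FPKM, overlapped each other and lay under every other member. The enzymes of the lower pathway thus had higher transcript levels than the transporter and the kinases of entry. Together the 10 genes made up 0.596% and 0.733% of the FPKM of all named genes with formaldehyde, against 0.661% and 0.615% untreated, and the groups overlapped.

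SLC2A1 encodes GLUT1, the transporter for basal glucose uptake (chr1:43391046-43424847 in hg19, minus strand). It had 53.3 and 84.8 FPKM with formaldehyde, against 48.1 and 82.6 FPKM untreated. Replicate 2 was the high library in both groups, 1.59 times replicate 1 with formaldehyde and 1.72 times untreated, while the group means differed by 1.06 times. The log2 fold change was 0.09 ± 0.37 (SE), with a 95% interval of -0.87 to 1.06 on the scale of log2(FPKM + 1). Its sign turned to -0.24 without formaldehyde replicate 2 and to -0.29 without untreated replicate 1. The overlapping SLC2A1-AS1 did not exceed 0.412 FPKM in any library. Strand use is not given in the sources used here, so reads of such a pair cannot be told apart.

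Hexokinase traps glucose as its phosphate. HK1, the housekeeping form (chr10:71029756-71161637, plus strand), had 72.1 and 96.8 FPKM with formaldehyde, against 58.3 and 80.2 FPKM untreated. Each formaldehyde library was above the untreated library of the same number, as also in SLC2A1, HK2, PFKP, PFKFB3 and ALDOA. A share of all genes with that order was not computed. The groups of HK1 overlapped, and its log2 fold change was 0.29 ± 0.27 (95% interval -0.42 to 0.99). Leaving out formaldehyde replicates 1 and 2 gave 0.495 and 0.076, and leaving out untreated replicates 1 and 2 gave 0.0592 and 0.51. HK2 (chr2:75059782-75120481, plus strand), the form known to be induced in muscle and in many tumours, had 17.2 and 19.3 FPKM with formaldehyde, against 12.1 and 11.7 FPKM untreated. Both formaldehyde libraries were above both untreated ones, and the replicates within each group lay close together. Between the groups, the authors' deposited intervals did not meet. The lower bounds were 16.4 and 18.6 FPKM with formaldehyde and the upper bounds 12.7 and 12.2 FPKM untreated. These intervals cover error within a library only. Those of the 2 formaldehyde libraries did not meet each other, the upper bound in replicate 1 being 18.1 FPKM. The log2 fold change of HK2 was 0.58 ± 0.19 (95% interval 0.09 to 1.07), with an unadjusted p of 0.0295 and a limma adjusted p of 0.9999 over 12407 genes. HK2 was the only one of the 10 genes with an unadjusted p under 0.05, a mark that 2.76% of all genes tested reached. Its log2 fold change lay just above the 95th percentile of all genes tested, 0.53, and ran from 0.50 to 0.65 over the 14 alternatives.

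Phosphofructokinase commits sugar to glycolysis. PFKP, its platelet-type subunit (chr10:3109712-3178997, plus strand), had 164 and 211 FPKM with formaldehyde, against 129 and 173 FPKM untreated. Replicate 2 was again the higher library in both groups, and formaldehyde replicate 1 lay under untreated replicate 2. The log2 fold change was 0.31 ± 0.27 (95% interval -0.39 to 1.02). The same omissions gave 0.498 and 0.13 for formaldehyde and 0.10 and 0.53 for untreated replicates 1 and 2. PFKFB3 (chr10:6186843-6277507, plus strand) makes the sugar bisphosphate that activates phosphofructokinase. It had 16.6 and 16.2 FPKM with formaldehyde, against 13.0 and 14.5 FPKM untreated. The groups did not overlap, but the gap between the nearest libraries was small, and the log2 fold change of 0.24 ± 0.19 had a 95% interval of -0.25 to 0.73. Its limma p was 0.264 before and 0.9999 after adjustment.

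PFKFB3 was the one member with 2 substantial transcripts, which begin at separate starts. The transcript from the upstream start, NM_001145443, had 11.05 and 9.11 FPKM with formaldehyde, against 7.37 and 7.21 FPKM untreated, and its groups did not overlap. The transcript from the downstream start, NM_004566, had 5.52 and 7.10 FPKM with formaldehyde, against 5.65 and 7.28 FPKM untreated, and there the groups overlapped. The separation of PFKFB3 was therefore seen in the upstream transcript. As a share of the gene, the upstream transcript made up 66.7% and 56.2% with formaldehyde, against 56.6% and 49.8% untreated, and the shares overlapped. Both transcripts end at the same place, and Cufflinks, which the submitters' processing notes name, divides reads between transcripts by a model. In the other members one transcript held at least 97.5% of the gene in every library.

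ALDOA splits the sugar bisphosphate into triose phosphates (chr16:30064411-30081741, plus strand). It had 781 and 966 FPKM with formaldehyde, against 738 and 865 FPKM untreated, with the higher library of each group again in replicate 2 and a log2 fold change of 0.12 ± 0.28. PGK1, the first enzyme of the pathway to yield ATP (chrX:77359666-77382324, plus strand), had 232 and 317 FPKM with formaldehyde, against 300 and 244 FPKM untreated. The lowest and the highest value both came from formaldehyde libraries, and the log2 fold change was 0.01 ± 0.28, with a 95% interval of -0.70 to 0.72. It turned to -0.04 when libraries were rescaled by median ratios. ENO1, which makes phosphoenolpyruvate (chr1:8921059-8939151, minus strand), had 1046 and 906 FPKM with formaldehyde, against 1069 and 773 FPKM untreated. Here replicate 1 was the higher library in both groups, and the log2 fold change was 0.10 ± 0.30. On the scale of FPKM + 1, the intervals of ALDOA, PGK1 and ENO1 still allow a level of 0.614 to 1.84 times the untreated one, so small changes of the lower pathway were not detectable here.

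Lactate dehydrogenase is a tetramer of LDHA subunits, which favour the reduction of pyruvate to lactate, and LDHB subunits, which favour the reverse. LDHA (chr11:18415936-18429765, plus strand) had 399 and 744 FPKM with formaldehyde, against 581 and 534 FPKM untreated. The formaldehyde libraries lay on either side of the untreated ones, 1.87-fold apart, and the log2 fold change of -0.03 ± 0.37 became 0.42 without formaldehyde replicate 1 and -0.48 without replicate 2. The ratio of means was 1.02, so mean and log scale differ in sign. LDHB (chr12:21788275-21810789, minus strand) had 434 and 414 FPKM with formaldehyde, against 436 and 263 FPKM untreated. Untreated replicate 2 was the one low library, and the log2 fold change of 0.33 ± 0.32 became -0.04 without it. Pseudogenes named for LDHA (6), ENO1 (4), LDHB (3), ALDOA (2), PGK1 (2) and HK2 (1) stand in the RefSeq table, and reads shared with such copies could be assigned unevenly.

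**Figure D2:**
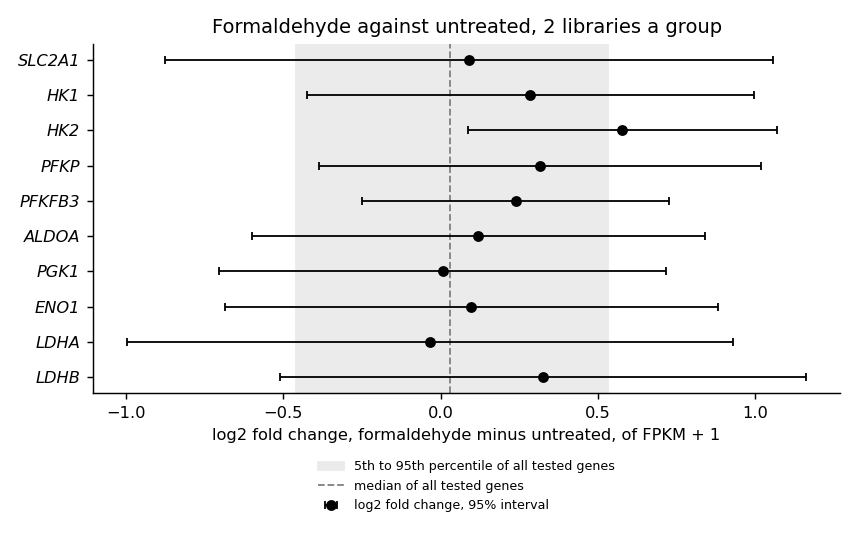
Log2 fold change of FPKM + 1, formaldehyde minus untreated, with its 95% interval from limma for each gene, over the 5th to 95th percentile (grey, -0.46 to 0.53) and the median (dashed, 0.03) of all genes tested. The interval of HK2, before adjustment for the number of genes, is the one that does not include 0.

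Of the 10 genes, 0 passed at a limma adjusted p under 0.05, beside 0.153% of all genes tested (19 of 12407, with 0.0806% higher with formaldehyde). The limma adjusted p was 0.9999 for each of the 10. Among genes with a transcript of at least 300 nt, to which all 10 belong, 1 of 12015 was called. Both formaldehyde libraries lay above both untreated ones in 2 of 10, against 16.2% of all genes, and below them in 0 of 10, against 10.7%. The log2 fold change was above 0 in 9 of 10, against 55.1% of all genes, and its median was 0.18, beside 0.03 over all genes tested. The median of the 10 stood 0.10 and 0.35 above the untreated mean in formaldehyde replicates 1 and 2. Without formaldehyde replicate 1, the median was 0.35 and 8 of the 10 genes lay above both untreated libraries, beside 31.2% of all genes. Without formaldehyde replicate 2 the number was 2 (32.9% of all genes). Without untreated replicate 1 the number above was 4 (47.0% of all genes), and without untreated replicate 2 it was 6 (29.7% of all genes). The count of genes called over the whole table also moved with single libraries, from 19 to between 31 and 55, and 0 of the 10 genes was called in any of these fits.

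In several of these genes, among them SLC2A1, HK1, PFKP and ALDOA, the replicates of each group differed more, as a ratio, than the group means did. SLC2A1, HK1, PFKP and ALDOA were higher in replicate 2 of both groups, 4 of 10 beside 29.3% of all genes. ENO1 and LDHB were lower there, 2 of 10 beside 37.6%. With 10 genes, these counts do not set them apart from all genes. The ratio of replicate 2 to replicate 1 was 1.34 and 1.38 for HK1 and 1.29 and 1.35 for PFKP, with formaldehyde and untreated in turn, while the ratios of the group means were 1.22 and 1.24. In the remaining 4 genes the replicates went opposite ways in the groups, most widely in LDHA, at 1.87 with formaldehyde and 0.92 untreated. For HK2 the ratio between group means was 1.54, beside replicate ratios of 1.12 and 0.967, and for PFKFB3 it was 1.19, beside 0.979 and 1.11.

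**Figure D3:**
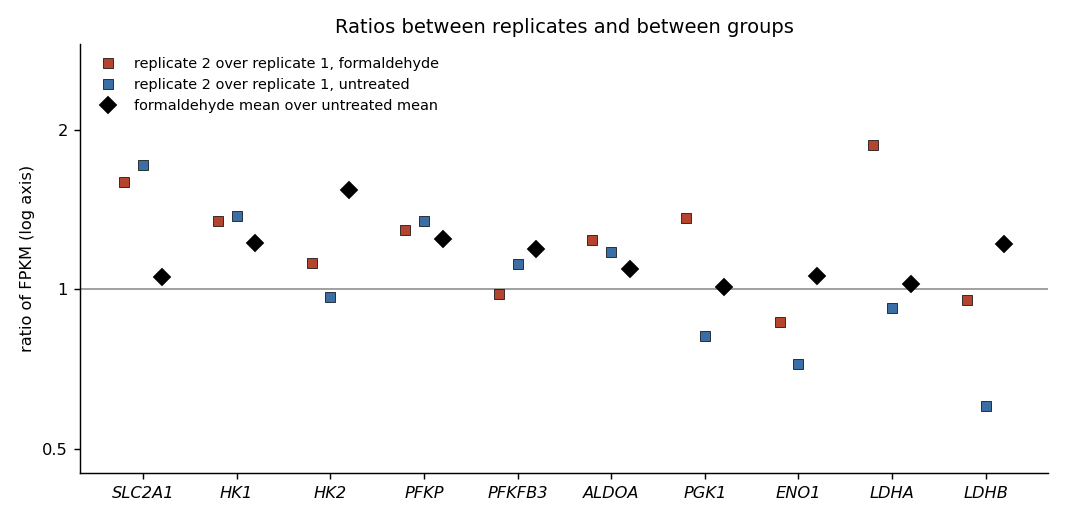
Ratio of FPKM (log axis) of replicate 2 to replicate 1 with formaldehyde (red squares) and untreated (blue squares), and of the formaldehyde mean to the untreated mean (black diamonds). For SLC2A1 the replicate ratios are 1.59 and 1.72 beside a group ratio of 1.06, and for HK2 they are 1.12 and 0.967 beside 1.54.

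Ratios between isoenzymes within a library do not depend on how that library was scaled. HK2 stood at 0.239 and 0.199 of HK1 with formaldehyde, against 0.207 and 0.146 untreated, so HK1 was the main hexokinase transcript in every library and the groups overlapped. LDHA stood at 0.917 and 1.80 times LDHB with formaldehyde, against 1.33 and 2.03 times untreated, also with overlap. The order of the LDH subunits turned in formaldehyde replicate 1 alone, where LDHB was the higher. PFKP stood at 1.43 and 1.60 times the sum of PFKL and PFKM, the liver and muscle subunits, with formaldehyde, against 1.06 and 1.36 times untreated, and these groups did not overlap. The log2 differences were 0.33, -0.36 and 0.34 in turn, with exact two-sided permutation p of 0.667, 0.667 and 0.333 (0.667 each after adjustment over the 3 ratios). With 2 libraries a group, 0.333 is the smallest p this test can give. With 1 library left out the HK2 to HK1 difference lay between 0.0725 (untreated replicate 2 omitted) and 0.58 (untreated replicate 1 omitted), and the PFKP difference between 0.15 (untreated replicate 1 omitted) and 0.52 (untreated replicate 2 omitted). The LDHA to LDHB difference ran from -0.84 without formaldehyde replicate 2 to 0.12 without formaldehyde replicate 1.

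**Figure D4:**
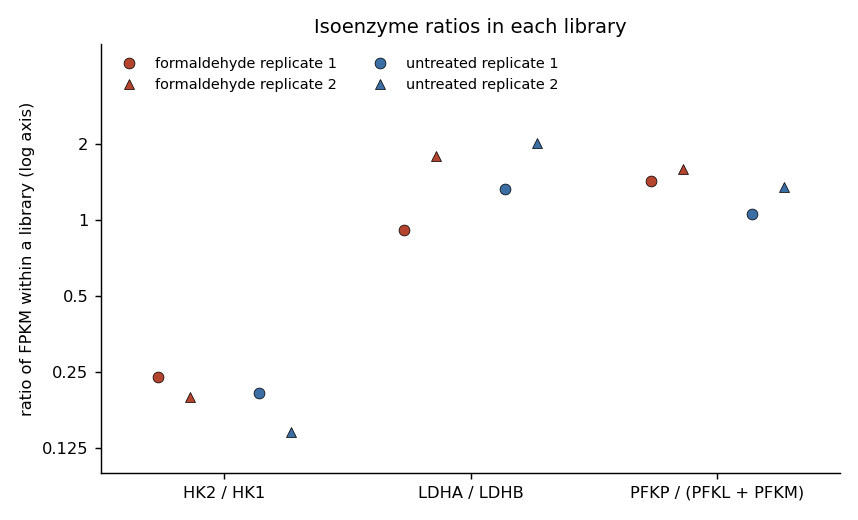
Ratios of FPKM within each library (log axis) of HK2 to HK1, LDHA to LDHB, and PFKP to the sum of PFKL and PFKM, formaldehyde in red on the left and untreated in blue on the right. Only the PFKP ratio, 1.43 and 1.60 against 1.06 and 1.36, is apart between the groups.

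The other enzymes of the pathway were set beside the 10 genes. Of 29 further glycolytic genes, 18 had a mean of at least 1 FPKM and were tested, with 12 log2 fold changes above 0, 6 below, a median of 0.08 and 0 called, where 0.153% of all genes were called. The groups did not overlap in 3 of these, 2 higher and 1 lower, beside 16.2% and 10.7% of all genes. PFKM (33.1 and 32.3 against 29.4 and 25.2 FPKM) and PKM, the pyruvate kinase (805 and 808 against 776 and 631 FPKM), were higher. PFKFB2 (1.84 and 1.61 against 2.22 and 1.87 FPKM) was lower. In replicate 2 of both groups the deposited lower bound of the leading PKM transcript was 0. ADPGK, a hexokinase that uses ADP, stood at 28.9 and 24.0 against 31.2 and 28.6 FPKM, and C12orf5, which encodes the bisphosphatase TIGAR, at 3.70 and 2.17 against 2.42 and 1.43 FPKM. Neither of these separated the groups.

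Beside SLC2A1, the other glucose transporters were low. Of 15, 6 were tested, with a median log2 fold change of -0.17, and 0 was called, where 0.153% of all genes were called. Among the 6, 1 was apart and higher with formaldehyde and 1 apart and lower, beside 16.2% and 10.7% of all genes. SLC2A6, a lysosomal transporter, was the most abundant of them and stood at 20.4 and 21.5 FPKM with formaldehyde, against 31.1 and 30.0 FPKM untreated. Both formaldehyde libraries were below both untreated ones, and its log2 fold change was -0.52 ± 0.19 (unadjusted p = 0.0374, limma adjusted p = 0.9999). SLC2A8 stood at 11.7 and 8.95 against 8.91 and 8.81 FPKM, and SLC2A3, a transporter of neurons, at 1.26 and 0.524 against 1.28 and 1.17 FPKM. SLC2A1 thus carried the highest transcript level among the transporters in every library.

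Genes that take lactate and pyruvate onward had a median log2 fold change of 0.04 over 16 tested of 18, with 10 above 0, 6 below and 0 called. Over all genes tested, 0.153% were called, 16.2% were apart and higher with formaldehyde, and 10.7% were apart and lower. In this list 2 genes were apart and higher and 1 was apart and lower. PDP1, a phosphatase that activates pyruvate dehydrogenase, stood at 9.87 and 14.3 against 7.73 and 9.32 FPKM, PDP2 at 2.99 and 2.86 against 2.22 and 2.09 FPKM, and the inhibitory kinase PDK3 at 3.13 and 3.39 against 4.76 and 3.47 FPKM. The pentose phosphate pathway, which draws on the product of hexokinase, had a median of -0.05 over 7 tested genes, with 3 above 0, 4 below and 0 called. Of these, 1 was apart and higher and 2 were apart and lower. There RPIA stood at 18.4 and 18.4 against 16.8 and 11.4 FPKM and PGD at 71.4 and 80.4 against 82.2 and 80.8 FPKM. Genes of gluconeogenesis and glycogen had a median of 0.06 over 8 tested of 13, with 6 above 0, 2 below and 0 called. Of these, 2 were apart and higher and 1 was apart and lower. PCK2, the mitochondrial carboxykinase, stood at 37.0 and 49.3 against 26.3 and 35.7 FPKM, and PC, the pyruvate carboxylase, at 2.68 and 3.27 against 3.78 and 5.32 FPKM. UGP2, which makes the sugar donor for glycogen, stood at 29.9 and 33.2 against 43.1 and 30.9 FPKM, with overlap.

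Since many of the 10 genes are known HIF targets, HIF targets outside glycolysis were set beside them. Over 15 tested of 16 the median log2 fold change of these was -0.21, with 4 above 0, 11 below and 0 called, where the 10 glycolytic genes had 9 above 0 and a median of 0.18. The groups were apart in 3 of the 15, all with formaldehyde lower, where 10.7% of all genes tested were apart and lower. Those 3 were P4HA1, a collagen prolyl hydroxylase, at 28.8 and 49.1 against 53.8 and 62.6 FPKM, ANKRD37 at 1.24 and 2.68 against 3.13 and 3.88 FPKM, and INSIG2 at 5.44 and 5.94 against 8.78 and 7.37 FPKM. In 11 of the 15, replicate 2 was the higher library in both groups, beside 29.3% of all genes, and in 0 it was the lower in both, beside 37.6%. Among the 10 glycolytic genes, 4 were higher and 2 lower in replicate 2 of both groups. Of the HIF factors and glucose sensors, 9 of 10 were tested with a median of 0.02, 5 above 0, 4 below and 0 called. In that list 1 gene was apart and higher, beside 16.2% of all genes, and 1 was apart and lower, beside 10.7%. ARNT, the partner of the HIF alpha subunits, stood at 7.28 and 9.95 against 12.5 and 11.4 FPKM, MLX, the partner of the glucose sensor MLXIP, at 39.2 and 34.4 against 30.8 and 26.3 FPKM, and TXNIP, a brake on glucose uptake, at 56.3 and 63.2 against 38.9 and 56.8 FPKM.

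**Figure D5:**
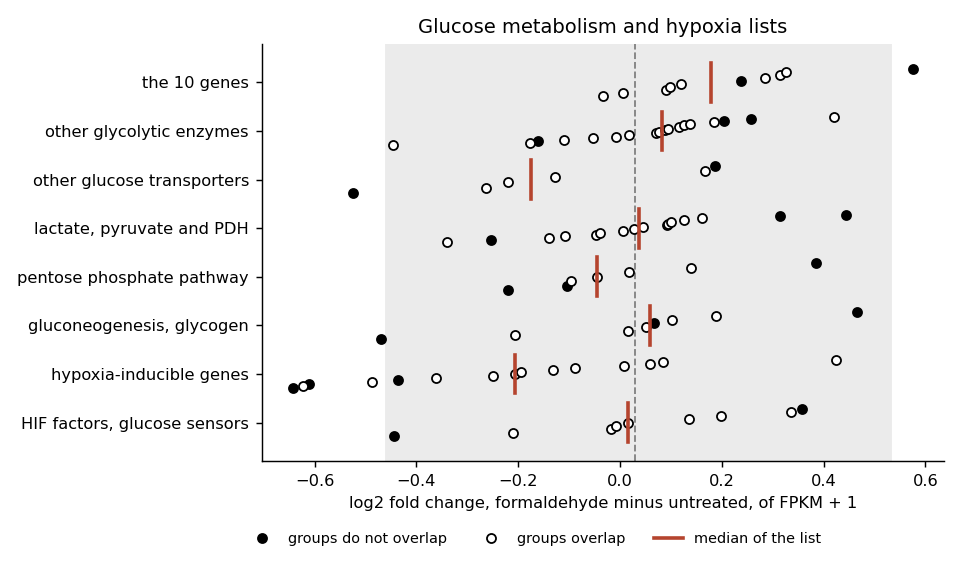
Log2 fold change of FPKM + 1, formaldehyde minus untreated, of every tested gene in the 8 lists, filled where the groups do not overlap, with the list median in red and the 5th to 95th percentile of all genes tested in grey. The medians run from -0.21 in the hypoxia-inducible list to 0.18 in the 10 genes.

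The mean pattern of the 10 genes, as log2(FPKM + 1) centred on each gene's own mean, was -0.05 and 0.25 with formaldehyde and -0.12 and -0.08 untreated. Formaldehyde replicate 2 was the one library above the others. Among 6363 genes outside the lists with a mean of at least 10 FPKM and a transcript of at least 300 nt, the 5 nearest to this pattern by Euclidean distance over the 4 libraries were ZMYND8 (0.0293), FIBP (0.0301), HEBP2 (0.0307), PLA2G16 (0.0324) and KXD1 (0.0369). With 4 libraries many genes follow any pattern closely, and the distances are given as a description.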

How the data were processed

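Per the submitters' processing notes, the tools were STAR 2.5.2, Cufflinks 2.0.2 and FastQC 0.10.0, on hg19 (GRCh37). How strand and multi-mapped reads were handled is not stated there. Each deposited file lists 40255 RefSeq transcripts of 1 library with the FPKM, interval bounds and coverage that the authors obtained, and was matched to its sample by a file name equal to the sample title. FPKM were summed by gene name without rescaling, leaving aside 894 unnamed transcripts that held 1.07% to 1.31% of the FPKM. Genes with a mean of at least 1 FPKM over the 4 libraries (12407, with all 10 members among them) were tested by limma 3.58.1 (R 4.3.3) on log2 values of FPKM + 1 (eBayes with a mean trend, two-sided, Benjamini-Hochberg over all genes tested, threshold 0.05). A fold change on this scale understates the change of low genes. The fit was tried on simulated libraries whose spread depended on the mean level alone, without the shared deviation of same-numbered libraries. That trial does not measure the error rates in these data. Depth is an estimate from the deposited intervals of genes with 1 transcript, read as Poisson errors. The isoenzyme ratios used an exact permutation test in scipy 1.17.1, and figures were drawn with matplotlib 3.10.9. Coordinates of genes are hg19 from the files, and sequences are from RefSeq on GRCh38.p14, where all 10 genes matched by symbol; no coordinate was converted. Members and lists were chosen with earlier results of these data known. Of each other list, up to 3 tested genes with the largest absolute moderated t are named; other genes of the lists are named after their values were seen. Some genes of the lists are not reported here. Alternatives covered the pseudocount, the filter, scaling, transcript choice, eBayes without a trend, the replicate number as a block and each library left out.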

Additional observations from a re-analysis of the deposited data

How the results depend on the processing

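No member was called under any of the 14 alternatives (limma, lowest adjusted p 0.588, for HK2 with the replicate block). The number of genes called over the whole table was 19, became 0 with no filter on low values (956 at an unadjusted p under 0.05), 1 with genes of at least 300 nt and 29 with the replicate block, and ran from 31 to 55 with 1 library left out. Same-numbered libraries of the 2 groups deviated together across genes (r = 0.253 over 12407 genes), but nothing in the labels says that a number marks a shared culture or day. With 1 library left out, the lone library of its group is assumed to vary like the others. The members' median of 0.18 ran from 0.10 to 0.35 with 1 library left out, and the number of members apart and higher, 2, from 2 to 8. HK1, HK2, PFKP and PFKFB3 did not change sign, but with 1 library left out HK1 ran from 0.0592 to 0.51 and PFKP from 0.10 to 0.53. PGK1 turned to -0.0355 by median ratios, -0.0592 by equal FPKM sums and -0.11 by quantiles. With 1 library left out, values ran from -0.29 to 0.47 for SLC2A1, -0.0337 to 0.27 for ALDOA, -0.22 to 0.23 for PGK1, -0.14 to 0.33 for ENO1, -0.48 to 0.42 for LDHA, -0.0383 to 0.69 for LDHB, -0.55 to 0.0211 for SLC2A3 and -0.44 to 0.0267 for UGP2, and the LDHA to LDHB difference from -0.84 to 0.12. The cause of these changes was not tested. With 2 libraries a group, a difference whose interval included 0 could not be told from 0. The HK2 interval did not include 0 before adjustment, and HK2 was still not called.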
